A study of Mus musculus with 6 samples.

Results

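Serpins are proteins of one fold, most of which block serine proteases by offering a reactive loop that traps the enzyme once it is cut. Clade A serpins are mostly secreted plasma proteins such as alpha-1 antitrypsin and the carriers of cortisol and thyroid hormone, clade B serpins lack a classical signal peptide and act largely inside cells, and a few members, among them the collagen chaperone Serpinh1, do not inhibit proteases at all. In the thyroid the family bears on hormone transport in blood and on the proteases, matrix and blood-derived cells around the follicles.

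The mouse serpins were examined here in microdissected thyroid at postnatal day 15, on 3 Affymetrix arrays from Slc26a4 knockouts and 3 from Slc26a4 heterozygotes. Knockouts lack pendrin, the apical anion exchanger that Slc26a4 encodes, and the heterozygous controls still carry 1 intact allele. A gene was a member if a probe set was annotated to it alone and its symbol began with Serpin, with the complement inhibitor Serping1 left out. This gave 39 genes, of 18193 with such a probe set on the array, measured by 55 probe sets. For each gene the probe set of the highest mean over the 6 arrays was used, and the others of the 12 genes with several served as a check. The family was picked because Serpina1b and Serpina12 read higher on all knockout arrays, so its differences between the genotypes and their intervals are given as a description only and support nothing.

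Arrays are named by genotype and by the sample number of their titles, knockout 2, 4 and 6 and heterozygous 1, 3 and 5. The deposited values are linear signals that had been scaled to the same trimmed mean. Median signals of the arrays ranged over 78.1 to 103.6. A signal above 22.9, the brightest reading of 27 probe sets for bacterial transcripts, was taken as above background. Slc26a4 read 2.10 to 15.7 on knockout and 4.59 to 12.1 on heterozygous arrays, all under background, so its probe set does not check the genotypes. Some arrays stood apart. On knockout 4 the thymic transcript Dntt read 1779, against at most 24.5 elsewhere. On knockout 6 Xist read 5442, against at most 110.2 elsewhere, and the Y-linked Eif2s3y read 9.12, against at least 3288. The labels give no sex, but by these transcripts knockout 6 read as female and all other arrays as male. Sex was thus not balanced between the genotypes. The parathyroid hormone transcript Pth read 2789 on knockout 6 and 165 on heterozygous 1, against at least 9702 on the other 4. Dntt and Eif2s3y were looked at after their values were seen. The labels do not say whether each array came from a separate mouse, so the intervals below measure the spread between these samples, which may be partly technical. In RNA of a whole gland, fewer cells of a type and less RNA per cell cannot be told apart. The precision is limited by the number of arrays.

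Serpina1b and Serpina12, the pair the choice rests on, lie in the same cluster of clade A genes, with 6 coding genes between them, all 6 of them serpins. Their promoters are shown because both read higher in knockouts, and that of Serpina1c is shown because it is a close paralogue of Serpina1b that this array reads near background. Each runs 5′ to 3′ on the gene's strand from 250 bases before the transcription start to 50 after it, from RefSeq on GRCm38.p6. Capitals mark GTTAAT, the core letters bound by the hepatocyte factor HNF1, in the Serpina1 promoters, and CCAAT in that of Serpina12. The windows are chr12:103738140-103738439 for Serpina1b, chr12:103904901-103905200 for Serpina1c and chr12:104044394-104044693 for Serpina12, all on the minus strand.
Serpina1b: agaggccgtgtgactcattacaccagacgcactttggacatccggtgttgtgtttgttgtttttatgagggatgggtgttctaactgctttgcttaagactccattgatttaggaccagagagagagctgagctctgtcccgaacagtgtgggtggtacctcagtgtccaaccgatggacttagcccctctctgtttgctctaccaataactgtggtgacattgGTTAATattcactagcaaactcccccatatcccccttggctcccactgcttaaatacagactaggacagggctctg
Serpina1c: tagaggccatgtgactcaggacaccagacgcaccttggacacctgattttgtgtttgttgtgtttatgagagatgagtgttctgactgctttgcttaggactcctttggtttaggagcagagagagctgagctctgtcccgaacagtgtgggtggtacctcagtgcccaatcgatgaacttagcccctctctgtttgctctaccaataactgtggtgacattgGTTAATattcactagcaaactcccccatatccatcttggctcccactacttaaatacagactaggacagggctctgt
Serpina12: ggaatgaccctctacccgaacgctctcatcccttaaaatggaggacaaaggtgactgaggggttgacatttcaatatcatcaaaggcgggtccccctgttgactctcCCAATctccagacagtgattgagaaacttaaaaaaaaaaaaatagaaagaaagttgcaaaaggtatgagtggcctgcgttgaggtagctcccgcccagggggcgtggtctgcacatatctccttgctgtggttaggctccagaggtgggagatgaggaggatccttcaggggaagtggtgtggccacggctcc

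The Serpina1b and Serpina1c windows were identical at 276 of 298 aligned bases, or 92.6%. Against the promoters of Serpina1a, Serpina1d and Serpina1e, the Serpina1b window was identical at 93.2%, 94.1% and 98.4% of the aligned bases. GTTAAT, searched on both strands, was present once in the Serpina1b and once in the Serpina1c promoter, and CCAAT once in that of Serpina12. GTTAAT was absent from the Serpina12 window. Heat shock elements (GAANNTTC and TTCNNGAA) and the TATA box (TATAAA) were searched too and found in none of the printed windows. CCAAT was also present in both Serpina1 promoters, where it is not marked. In each, a CCAAT match on the opposite strand overlaps GTTAAT by its first letter, which is therefore in capitals. Of 32851 promoter windows of this length, 7.10% held GTTAAT and 37.4% held CCAAT, against 5 and 13 of the 34 members with a window in the table. These matches describe the letters only.

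Of the 39 genes, 14 read above background on all 6 arrays, 9 on some and 16 on none. Among all genes of the array measured in the same way, 72.1% read above background on all 6, against 35.9% of the serpins. Clade A had 3 of its 14 genes above background throughout, and clade B had 8 of 18. The other 3 were Serpinf1, Serpinh1 and Serpini1. Of the 13 members on chromosome 12, where clade A is clustered, 3 read above background throughout, against 6 of the 11 on chromosome 13 and 2 of the 8 on chromosome 1, where clade B genes lie. The promoter windows of serpins above background on all arrays had a median GC content of 51.0% (n = 13), against 48.3% for those above it on none (n = 13) and 52.7% over all promoter windows.

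**Figure D1:**
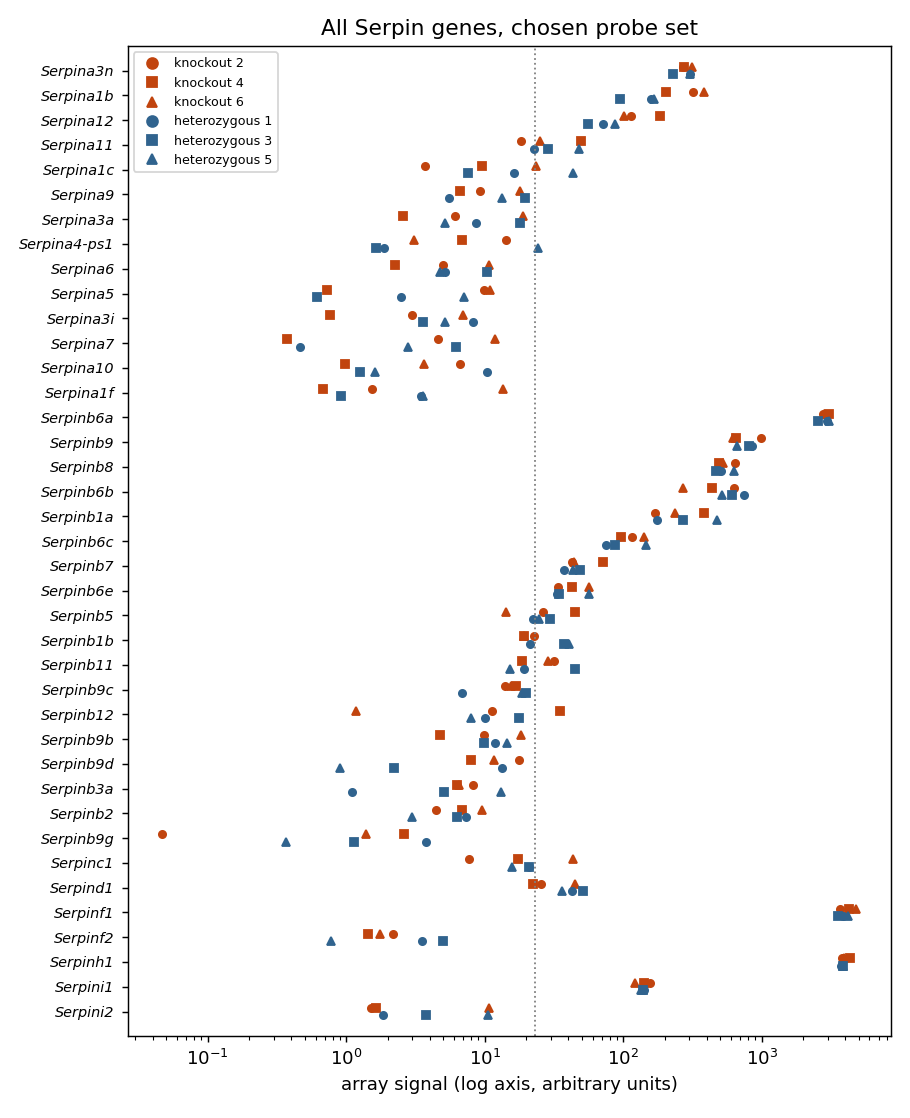
Signal of each of the 39 serpin genes on each array, by its chosen probe set, on a log axis in arbitrary units, with knockout arrays in red above heterozygous arrays in blue and clades A to I from top to bottom. The dotted line is the background of 22.9, and 14 genes lie to its right on all 6 arrays. Positions compare arrays within a gene, not genes with each other, since probe sets differ in brightness.

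Several serpins of plasma, unlike Serpina1b and Serpina3n, read at or near background. Serpina7, the thyroxine-binding globulin that carries thyroid hormone in blood, read 0.375 to 11.8 over the arrays. Serpina6, the corticosteroid-binding globulin, read 2.26 to 10.8, and the protein C inhibitor Serpina5 read 0.620 to 10.9. All 3 were under background on every array, as was Serpinf2, the plasmin inhibitor alpha-2 antiplasmin, at 0.775 to 4.96. Antithrombin, Serpinc1, passed background on knockout 6 alone, at 43.1, and heparin cofactor II, Serpind1, passed it on 5 arrays, at up to 51.3. The other plasma carriers of thyroid hormone were mixed. Albumin, Alb, read 2.39, 20.7 and 11.6 in knockouts and 16.5, 23.2 and 31.8 in heterozygotes. Transthyretin, Ttr, read 226, 44.6 and 220.3 in knockouts and 336, 72.4 and 151 in heterozygotes, a spread within each genotype wider than the difference between them.

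Among the serpins of surface epithelia most readings lay near background. Serpinb5, the maspin of glandular epithelium, read 26.4, 45.2 and 14.2 in knockouts and 22.2, 29.6 and 24.6 in heterozygotes. Serpinb12 passed background on knockout 4 alone, at 34.9, and Serpinb11 passed it on 3 arrays, at up to 44.6. The squamous cell serpin Serpinb3a and Serpinb2, the plasminogen activator inhibitor of macrophages and keratinocytes, passed it on none, at up to 13.2 and 9.52. The further genes above background on no array were Serpina1f, Serpina3a, Serpina3i, Serpina9, Serpina10, Serpini2, Serpinb9b, Serpinb9c, Serpinb9d and Serpinb9g, at up to 20.0. Serpina11 and Serpinb1b passed it on 4 and 2 arrays, at up to 49.2 and 40.8, Serpina1c on 2, at up to 43.0, and the pseudogene Serpina4-ps1 on 1, at 24.1.

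The comparison between the genotypes was fitted over the 27022 probe sets whose mean log2 value passed the 40th percentile, which corresponds to a signal of 43.5. Of the 39 serpins, 13 passed this filter, and no difference is given for the other 26. Serpinb7 lay just inside it, with a mean signal of 47.9, and Serpinb6e just outside, with a mean of 42.9. Serpinb6e read 33.6, 42.8 and 56.8 in knockouts and 33.2, 34.4 and 56.9 in heterozygotes, with nearly the same range in both. At an adjusted p of 0.05 limma called 0 of the 27022 probe sets, or 0%, and 0 of the 13 serpins. At an unadjusted p under 0.05 it had 138 probe sets, or 0.511%, of which 66 were higher and 72 lower in knockouts.

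The knockout arrays all lay above the heterozygous arrays for 2 of the 13 serpins, again Serpina1b and Serpina12, and all below for 0. Over all probe sets tested these shares were 1.64% and 2.04%. Since the family was picked on this pattern, nothing is read from the count of 2. Of the 13, 10 had a higher knockout mean and 3 a lower one, and the median log2 difference was 0.05, against -0.002 over all probe sets tested.

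Serpina1b encodes a mouse form of alpha-1 antitrypsin, the secreted inhibitor that blocks neutrophil elastase and is made mainly by liver. By its brighter probe set it read 321, 205 and 382 on knockout 2, 4 and 6, against 159.8, 94.9 and 166 on heterozygous 1, 3 and 5. The lowest knockout array lay above the highest heterozygous one, with a mean of 303 ± 89.9 in knockouts and 140.2 ± 39.4 in heterozygotes (SD, n = 3 each). The log2 difference was 1.02 ± 0.28 (SE), a 2.02-fold higher level, with a 95% interval of 0.37 to 1.67. Differences here are on the scale of log2(signal + 16.7), which understates those of dim genes.

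The dimmer probe set of Serpina1b read 294, 200.6 and 305 in knockouts, against 181, 126 and 159 in heterozygotes. Its groups did not overlap either, and its log2 difference was 0.71 ± 0.22 (SE). Both probe sets were measured on the same arrays and are no separate evidence. A further probe set, annotated to Serpina1b together with 2 paralogues, read 1.66 to 7.46 in knockouts and 1.94 to 2.71 in heterozygotes, under background throughout. The paralogue Serpina1c read 3.69, 9.61 and 23.6 in knockouts and 16.2, 7.51 and 43.0 in heterozygotes by its own probe set, with overlapping groups. A probe set shared by Serpina1d and Serpina1a read 16.3 to 40.5 in knockouts and 17.3 to 57.0 in heterozygotes. Since these genes are close copies of each other, the assignment of the signal to Serpina1b within them is uncertain.

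The log2 difference of Serpina1b was 1.26 without knockout 4, 0.84 without knockout 6 and 1.12 without heterozygous 1. It was 1.24 with all 3 of these arrays left out, where knockout 2 stands alone. Of 15 measured liver genes, 5 passed background on no array, namely Apob, Fgb, Fgg, Ambp and Cps1, which are named after their values were seen. Albumin, Alb, passed it on heterozygous 3 and 5 alone. The summed signal of the list was 2895 to 5120 in knockouts and 2103 to 4346 in heterozygotes, carried mostly by haptoglobin, Hp, at 2217, 2510.3 and 3562 in knockouts and 3224, 1666 and 3389 in heterozygotes. The liver enzyme Cyp2e1, the tested gene of the list with the largest difference, at 0.66 on the log2 scale, read 296, 259 and 1072 in knockouts and 204, 159 and 592 in heterozygotes. Like Hp it was highest on knockout 6 and lowest on heterozygous 3, and its groups overlapped. The remaining tested gene, Ttr, went the other way, with a log2 difference of -0.19. It was highest on heterozygous 1, at 336, and lowest on knockout 4, at 44.6. On this list 3 genes could be tested, and 0 passed in either direction. Its sum was highest on knockout 6 and lowest on heterozygous 3, the arrays on which Serpina1b was also highest and lowest, and its part in the difference was not tested.

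Serpina12 encodes vaspin, an adipokine secreted by fat and found also in skin. It read 114, 184 and 101 on knockout 2, 4 and 6, against 71.6, 56.0 and 87.9 on heterozygous 1, 3 and 5 by its brighter probe set. All knockout arrays lay above all heterozygous arrays, and knockout 4 stood well above the others. The mean was 133 ± 44.6 in knockouts and 71.8 ± 15.9 in heterozygotes (SD, n = 3 each), and the log2 difference was 0.74 ± 0.27 (SE), a 1.67-fold higher level with a 95% interval of 0.12 to 1.35. The gene's dimmer probe set read 6.72, 7.70 and 12.6 in knockouts and 10.2, 13.15 and 4.22 in heterozygotes, under background on every array, and does not check the difference.

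The log2 difference of Serpina12 was 0.50 without knockout 4, 0.89 without knockout 6 and 0.74 without heterozygous 1, and 0.59 with all 3 left out. After quantile normalization it was 0.71, and the groups then overlapped. The 10 fat genes measured summed to 40989 to 54261 in knockouts and to 42418 to 50713 in heterozygotes, and 0 of them passed limma in either direction. Of the 10, 8 had a higher and 2 a lower knockout mean. All knockout arrays lay above for 1 of them and all below for 0, against 1.64% and 2.04% of all probe sets tested. That gene, the fatty acid elongase Elovl3, read 285, 229 and 271 in knockouts, against 214, 140.7 and 93.9 in heterozygotes. It was highest on knockout 2 and lowest on heterozygous 5, and Serpina12 was highest on knockout 4 and lowest on heterozygous 3. Retn had the list's next largest difference, at 0.54 on the log2 scale. It read 314, 146 and 381 in knockouts and 198, 113 and 230 in heterozygotes, with overlap. Like Serpina12 it was lowest on heterozygous 3, but it was highest on knockout 6. The uncoupling protein Ucp1 read 9211, 11977 and 11253 in knockouts and 10639, 9816 and 11159 in heterozygotes, with overlap. The part of fat in the reading of Serpina12 was not tested.

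**Figure D2:**
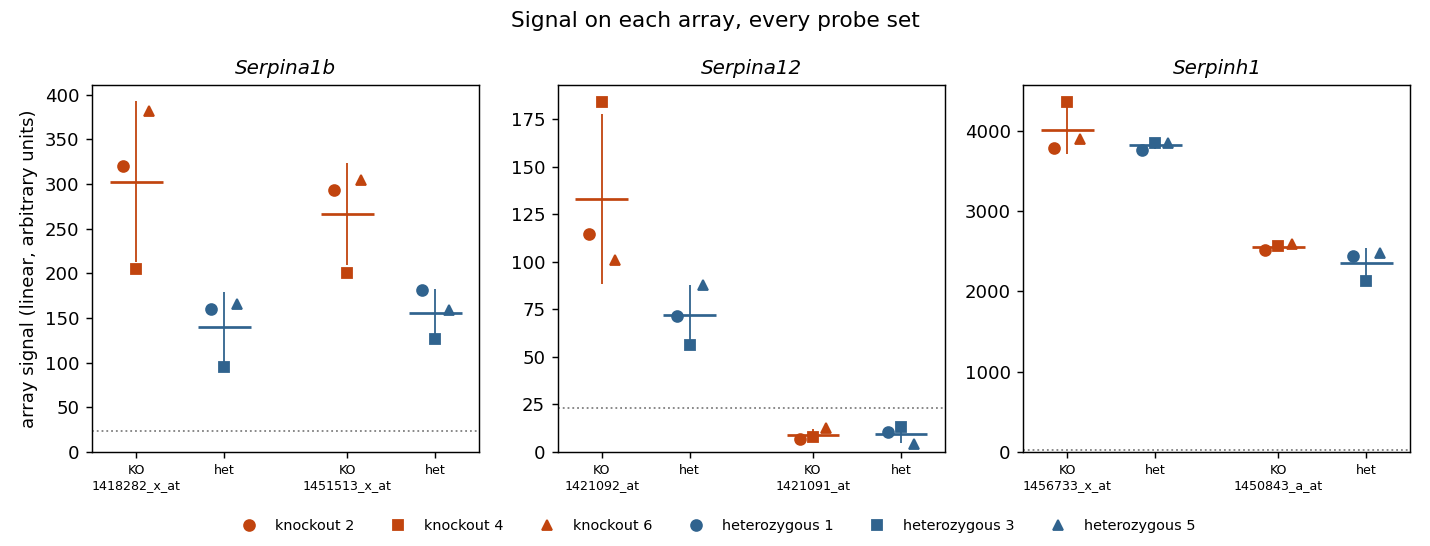
Signal of Serpina1b, Serpina12 and Serpinh1 on each array, by every probe set, on linear axes in arbitrary units that start at 0. Horizontal bars are means and vertical bars SD over the 3 arrays of a genotype, knockout (KO) left of heterozygous (het), and the dotted line is the background of 22.9. Both probe sets of Serpina1b, the brighter one of Serpina12 and, by a narrow margin, the dimmer one of Serpinh1 show no overlap. The dimmer probe set of Serpina12 stays under background.

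Serpinh1 encodes Hsp47, the chaperone of the endoplasmic reticulum that binds procollagen and does not inhibit proteases. It was bright and even. Its brighter probe set read 3778, 4353 and 3902 in knockouts, against 3765, 3846 and 3845 in heterozygotes. The groups overlapped, with a mean of 4011 ± 303 in knockouts and 3818 ± 46.5 in heterozygotes (SD, n = 3 each). The log2 difference was 0.07, with a 95% interval of -0.12 to 0.26, and it was 0.01 without knockout 4, the highest array. By the dimmer probe set Serpinh1 read 2510.3, 2562 and 2590.4 in knockouts, against 2436, 2128 and 2481 in heterozygotes, a log2 difference of 0.12 with an interval of -0.09 to 0.34. There the groups did not overlap, by a margin of 2510.3 over 2481.

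The collagens and the enzymes that modify them, the partners of Serpinh1, gave small differences. Of 20 genes tested, 0 passed limma in either direction, 13 had a higher and 7 a lower knockout mean, and the median log2 difference was 0.05. Col1a1 read 7405, 8213 and 7459.5 in knockouts and 6919, 7779 and 7660 in heterozygotes. Col3a1 read 9959, 12117 and 11513 in knockouts and 10909.6, 10867 and 11122 in heterozygotes. The lysyl hydroxylase Plod2, with the list's largest difference, read 639, 552 and 505 in knockouts and 718, 807 and 547 in heterozygotes, a log2 difference of -0.27. All 3 genes overlapped between the genotypes.

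Serpinf1 encodes pigment epithelium-derived factor, a secreted protein that restrains vessel growth and does not inhibit proteases. It read 3649.6, 4287 and 4779.9 in knockouts, against 3849, 3539 and 4208 in heterozygotes. The range of the knockouts contained the upper part of that of the heterozygotes, and the log2 difference was 0.13 with an interval of -0.14 to 0.40. Its dimmer probe set gave 0.27, with 409, 674 and 641 in knockouts and 468, 488 and 430.4 in heterozygotes. On both probe sets knockout 2 was the lowest knockout array, and without it all remaining knockout readings of the brighter probe set lay above the heterozygous ones. The fibroblast list was likewise lower on knockout 2, at a sum of 32508, than on knockout 4 and 6, at 39618 and 37872, and it was 32399.7 to 36172 in heterozygotes. Of its 10 genes 0 passed limma in either direction.

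Serpini1 encodes neuroserpin, an inhibitor of tissue plasminogen activator in neurons. It read 157, 141 and 121 in knockouts, against 142, 140.04 and 134 in heterozygotes. The knockouts surrounded the heterozygotes on both sides, and the log2 difference was below 0.01 in size, at 0.0008, with an interval of -0.41 to 0.41. Another probe set of Serpini1 read 156, 133 and 129.8 in knockouts, against 121, 125.04 and 114 in heterozygotes, without overlap and with a log2 difference of 0.19. These 2 probe sets of the gene differed on whether the genotypes overlapped.

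The target of neuroserpin, tissue plasminogen activator (Plat), read 689, 1002 and 608 in knockouts, against 489, 664 and 772 in heterozygotes, a log2 difference of 0.24 with overlapping groups. Of the 7 genes of plasminogen activation that were tested, 0 passed limma in either direction, and the median difference was 0.01. The coagulation list had 18 genes, of which 7 were tested and 0 passed, while 8 read above background on no array. Thrombomodulin, Thbd, the endothelial cofactor that turns thrombin to anticoagulant use, read 4494, 5287 and 4939 in knockouts, against 4599.9, 4319 and 4379.97 in heterozygotes. Its log2 difference was 0.14, and the groups overlapped. The receptor Lrp1, which clears complexes of serpin and protease, read 2193, 2292 and 2634 in knockouts, against 2055, 2083 and 2290.4 in heterozygotes, a log2 difference of 0.14.

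Serpina3n, a secreted relative of human alpha-1 antichymotrypsin that is induced in inflammation, read 271, 275 and 316 in knockouts, against 301, 228 and 306 in heterozygotes. The heterozygous range took in nearly all of the knockout range, and the log2 difference was 0.05 with an interval of -0.34 to 0.44. With Serpina1b and Serpina12 it makes up the clade A genes among the 13.

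**Figure D3:**
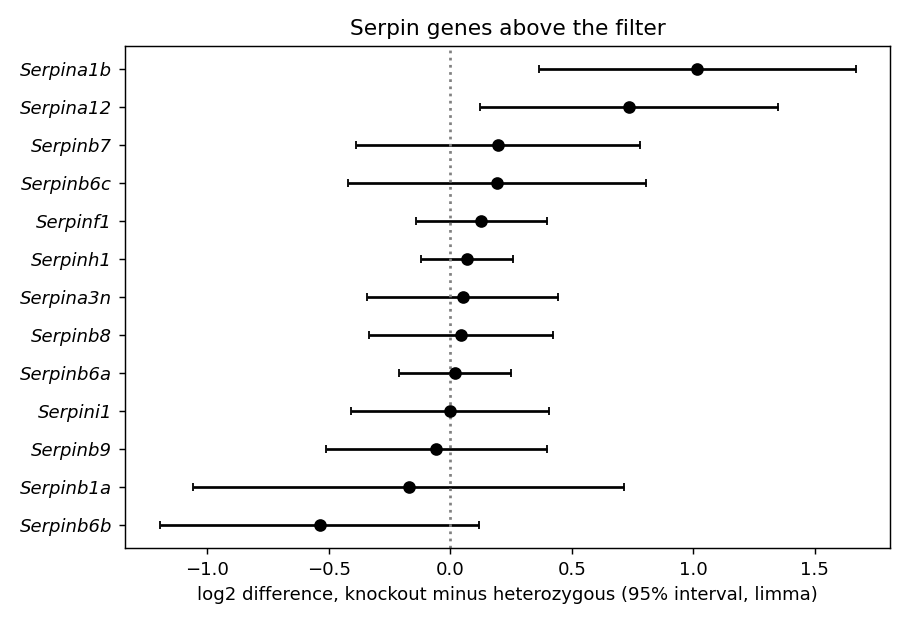
Log2 difference of the 13 serpins above the filter, knockout minus heterozygous, with the 95% interval of limma as bars. The values run from -0.54 for Serpinb6b to 1.02 for Serpina1b, and the intervals of Serpina1b and Serpina12, the genes the family was picked for, are those that do not reach 0.

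Within clade B, Serpinb1a varied widely between arrays. It inhibits neutrophil elastase, proteinase 3 and cathepsin G and is found in neutrophils and other blood cells. It read 171, 383 and 235 in knockouts, against 174, 269.9 and 476 in heterozygotes. Each genotype covered more than a doubling, with the highest array 2.78 times the lowest, and the log2 difference of -0.17 had an interval of -1.06 to 0.72. Its dimmer probe set read 258, 346 and 221 in knockouts, against 139.6, 191 and 379 in heterozygotes, a difference of the other sign, 0.30. Both probe sets were highest on heterozygous 5 and knockout 4.

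The same arrays were also highest for the granule proteases of neutrophils and mast cells, whose 9 measured genes summed to 1832, 2804 and 1847 in knockouts and to 1316, 1691 and 2428 in heterozygotes. These sums came mostly from mast cell genes, among them the protease Cpa3, at 551, 725 and 463 in knockouts and 362, 471 and 771 in heterozygotes. The neutrophil gene S100a8, from the myeloid list, read 406, 581 and 616 in knockouts and 206, 319.7 and 1252 in heterozygotes. Among knockouts it was highest on knockout 6. S100a9 of the same list, chosen after its values were seen, read 698, 960 and 762 in knockouts and 432, 694 and 1222 in heterozygotes. Like Serpinb1a, S100a9 was highest on heterozygous 5 and, among knockouts, on knockout 4. Myeloperoxidase, Mpo, the tested neutrophil gene of the granule list, read 118, 76.2 and 11.7 in knockouts and 9.50, 73.8 and 70.6 in heterozygotes. It was chosen after its values were seen, and it was highest on knockout 2 and heterozygous 3. The target protease genes of neutrophils themselves, Elane, Prtn3 and Ctsg, chosen after their values were seen, read at most 28.4 on any array. Of the 5 genes of the list that were tested, 5 had a higher knockout mean and 0 passed limma in either direction. The part of these cells in the spread of Serpinb1a was not tested.

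Serpinb6a, a cathepsin G inhibitor found in many cell types, was bright and steady. It read 2775, 3067 and 2828 in knockouts, against 2940.3, 2547 and 3084 in heterozygotes. The genotypes overlapped fully, the highest array was 1.21 times the lowest, and the log2 difference was 0.02 with an interval of -0.21 to 0.25. Its relative Serpinb6c read 115, 96.6 and 140.5 in knockouts, against 75.7, 87.7 and 147 in heterozygotes, a log2 difference of 0.19 with an interval of -0.42 to 0.80.

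Serpinb6b, another relative, had the largest difference in the direction of lower knockouts. It read 629, 435 and 271 on knockout 2, 4 and 6, against 747, 614 and 516 on heterozygous 1, 3 and 5. Knockout 2 lay among the heterozygous arrays while knockout 4 and 6 lay below all of them, and the log2 difference was -0.54 with an interval of -1.20 to 0.12. Without knockout 6 it was -0.24, and without knockout 6 and heterozygous 1 it was -0.10. With knockout 4 and 6 both left out, it was 0.02. With heterozygous 1 left out besides, it was 0.15, so the direction rests on knockout 4 and 6. The markers of skeletal muscle were also lowest on knockout 6, with a sum of 31778, 13246 and 4749 in knockouts and 30681, 22801 and 14752 in heterozygotes. Thyrocyte markers were, like Serpinb6b, highest on heterozygous 1 and lowest on knockout 6, at 40613, 37464 and 34863 in knockouts and 42724.5, 37658 and 35327 in heterozygotes. The part of these tissues in the reading of Serpinb6b was not tested.

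Serpinb9 shields cells from granzyme B, the protease of cytotoxic lymphocytes. It read 992, 656 and 619 in knockouts, against 851, 807 and 660.4 in heterozygotes. The knockouts spanned the whole range of the heterozygotes, and the log2 difference was -0.06 with an interval of -0.51 to 0.40. Its dimmer probe set gave -0.15, with readings of 365, 333 and 255 in knockouts and 351, 323 and 383 in heterozygotes.

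The granule genes of cytotoxic cells differed in level. Granzyme B (Gzmb) read under background on all arrays, at up to 9.81, and granzyme A (Gzma) read 708 on knockout 4 and at most 10.5 elsewhere; both were named after their values were seen. Serpinb9 itself was not high on knockout 4. Of the 5 genes of the list, 2 were tested and 0 passed limma in either direction. Perforin, Prf1, read 359, 255 and 340.4 in knockouts, against 302, 350.1 and 309 in heterozygotes.

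Serpinb8, whose human form inhibits furin, read 644, 489.9 and 522 in knockouts, against 511, 469.8 and 626 in heterozygotes. The groups overlapped over nearly their whole range, at 0.04 on the log2 scale (95% interval -0.34 to 0.42), and the dimmer probe set gave -0.12. Serpinb7, a serpin of skin and other stratified epithelium, read 42.7, 71.9 and 43.8 in knockouts, against 37.4, 48.4 and 43.2 in heterozygotes. Knockout 4 alone stood out, and the log2 difference was 0.20 with an interval of -0.39 to 0.78. Serpinb12 and, by its chosen probe set, Serpinb5 were highest on knockout 4 as well, at the values given above. The other probe sets of Serpinb5 were under background on every array and highest on knockout 2 or heterozygous 3. The basal keratin Krt5, chosen after its values were seen, read 104, 219 and 33.6 in knockouts, against 96.9, 122 and 87.8 in heterozygotes. Its highest value was on knockout 4. Other keratins of its list were mixed there. Krt14 was also highest on knockout 4, at 70.1, but Krt4 was lowest on it, at 36.3. Krt13 read 10.3 on knockout 4, between 5.44 on heterozygous 1 and 92.5 on heterozygous 5. Krt13 and Krt14 were named with their readings already known. The whole list of squamous and airway epithelium had its lowest sum on knockout 4, at 4109. It summed to 5476 to 5629 on the other knockout arrays and to 4574 to 7312 in heterozygotes. Of its 6 tested genes 0 passed limma in either direction, and its part in the reading of Serpinb7 was not tested.

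**Figure D4:**
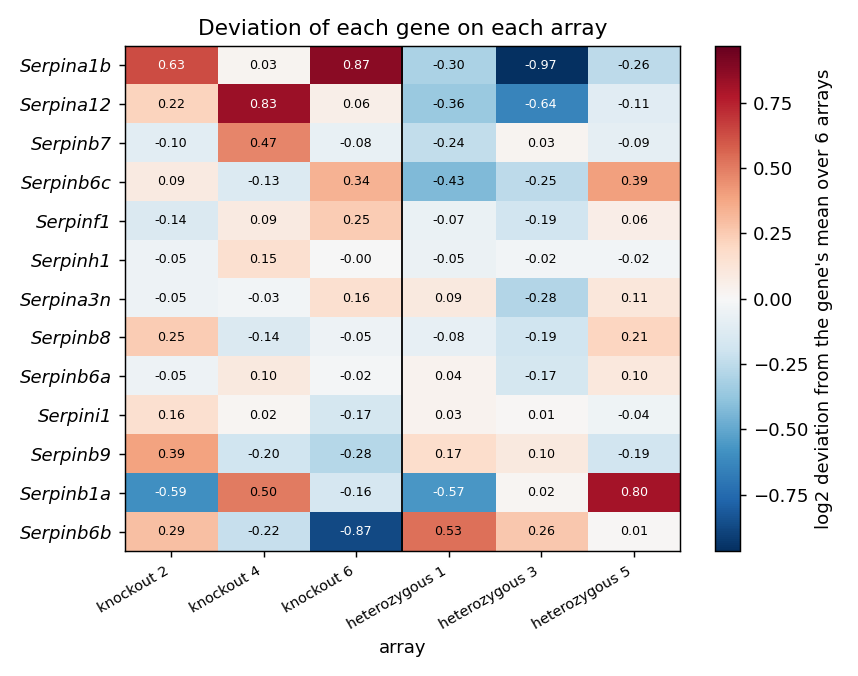
Log2 deviation of each of the 13 serpins from its mean over the 6 arrays, with knockout arrays left of the line and heterozygous arrays right of it. Serpina1b and Serpina12 are positive on all knockout and negative on all heterozygous arrays, while Serpinb1a (-0.59 to 0.80) and Serpinb6b (-0.87 to 0.53) vary widely within the genotypes.

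The members did not rise and fall together over the arrays. Heterozygous 3 was the lowest array for 6 of the 13 genes and the highest for 0, and the median deviation of the family there was -0.17. Knockout 2, 4 and 6 and heterozygous 5 were each the highest array for 3 genes. The family's median deviation was 0.09, 0.03 and -0.02 on knockout 2, 4 and 6, against -0.07, -0.17 and 0.01 on heterozygous 1, 3 and 5, with overlapping groups. Serpina1b and Serpina12 themselves peaked on different arrays, Serpina1b on knockout 6, with a deviation of 0.87, and Serpina12 on knockout 4, with 0.83. Both were lowest on heterozygous 3, at -0.97 and -0.64.

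Knockout 4, the highest array for Serpina12 and Serpinb7, stood apart in the interferon and thymus lists. The interferon list summed to 3090.3, 6248 and 2763 in knockouts and to 2814, 2829.5 and 3101 in heterozygotes, with 12 of 12 tested genes higher in knockouts and 0 passing limma. The thymus and T cell list summed to 2272, 6947 and 3163 in knockouts and to 2252, 2089 and 3148 in heterozygotes, with 6 of 6 tested genes higher and 0 passing. The myeloid list, at 10961 to 13917 in knockouts and 11042 to 14525 in heterozygotes, had 9 tested genes and 0 passing. Whether any of these lists bears on the readings of Serpina12 or Serpinb7 was not tested.

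**Figure D5:**
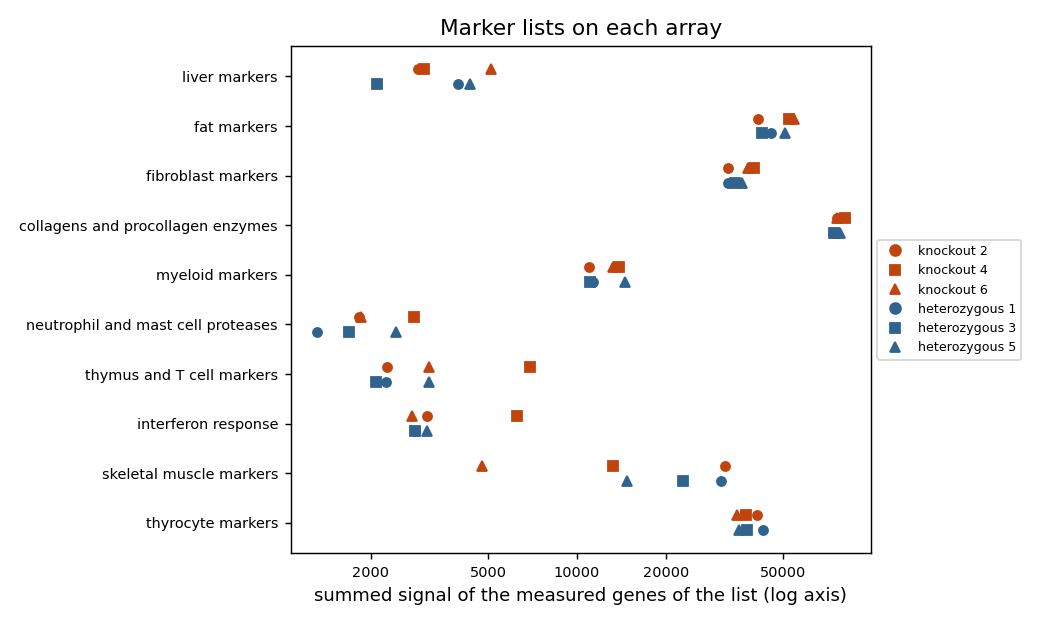
Summed signal of the measured genes of 10 marker lists on each array, on a log axis in arbitrary units, with knockout arrays in red above heterozygous arrays in blue. Knockout 4 stands apart in the interferon and the thymus and T cell lists, at 6248 and 6947, and knockout 6 is lowest for skeletal muscle, at 4749.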

How the data were processed

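RNA of microdissected thyroid was labelled by the Ovation (NuGen) protocol and hybridized to Affymetrix mouse 430 arrays, per the labels' protocols. The authors deposited linear intensities, 1 signal per probe set and array, made with GCOS per the submitters' processing notes. The sources used here do not give its settings or detection calls. The mean after trimming 2% at each end was 500.002 on all 6 arrays, so they had been scaled to a common mean, which would remove any shift shared by most transcripts.

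Of the probe sets, 34945 had 1 gene symbol in the platform annotation, 932 several and 9211 none. All 39 members matched RefSeq by symbol. Values were taken as log2(signal + 16.7), the pseudocount being the 25th percentile of all signals. Affymetrix controls (64 probe sets) were dropped. The groups were compared over all 27022 probe sets above the filter with limma 3.58.1 in R 4.3.3 (lmFit, eBayes with an intensity trend, Benjamini-Hochberg adjustment). The fit was also run on values simulated with independent noise. Such values do not carry the differences between whole arrays described above, so that run cannot show how the fit behaves under them. Promoters were aligned with Biopython 1.88 with free end gaps.

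The members and gene lists were chosen with earlier results of these data known. All members are named. Of each list, the 2 brightest genes and the 2 with the largest difference could be named, and others are marked as chosen later. Serpin genes without a probe set of their own were not analysed here.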

Additional observations from a re-analysis of the deposited data

How the results depend on the processing

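The comparison was repeated under 19 other settings: 2 normalizations, 2 pseudocounts, 2 filters, 2 variance models, array weights, each array left out, 3 combinations of arrays left out and the mean of a gene's probe sets. The combinations without knockout 4 and 6, and without these and heterozygous 1, were chosen after seeing the data. No serpin was called under any of them. Probe sets called were counted in all settings but the mean of a gene's probe sets, and were 0 except without knockout 4, knockout 6 and heterozygous 1, where 1 was. The difference of Serpina1b was positive in all 19 settings, from 0.77 to 1.26, and that of Serpina12 in the 18 where it was tested, from 0.50 to 1.03. Both were picked because their knockout arrays all lay above, so leaving arrays out could not turn their sign, and nothing is read from it. The other 11 genes each took the opposite sign in at least 1 setting. For Serpinb6b, Serpinb7, Serpinf1 and Serpinh1 this happened only in the 2 settings chosen after seeing the data. The count of serpins with all knockout arrays above was 1 after quantile normalization, and 1 under the 60th-percentile filter, which removed Serpina12. It was 5 without knockout 4 and 6 and 6 without these and heterozygous 1, where fewer arrays make separation easier, and 2 to 4 with 1 array left out. It was 4 without knockout 2, where Serpinf1 and Serpinh1 joined, while Serpinb6b and Serpinb9 lay all below there. Without knockout 4 and 6, Serpinb1a lay all below. With heterozygous 1 left out besides, Serpinb1a, Serpinb7 and Serpinh1 did. The matching shares over all probe sets were not counted under these settings, so nothing is read from these counts. The median difference of 0.05 was 0.13 with array weights and ran from 0.000644 without heterozygous 3 to 0.16 without heterozygous 5. The causes of these shifts were not tested. No paired analysis was possible because the genotypes share no sample number. Dim members under the filter have no usable difference at this signal over background.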

Other observations

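Serping1, the C1 inhibitor that the rule left out, read 3556, 4069.6 and 4437 in knockouts, against 3568, 3537 and 3910.2 in heterozygotes, with a log2 difference of 0.13 and overlapping groups. A probe set shared by 4 genes of the Serpinb9 group read under background on every array, at up to 8.81.

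Protease inhibitors of other families were also compared. Of 17 genes, 15 were tested, 0 passed limma in either direction, and 7 had a higher and 8 a lower knockout mean. The cysteine protease inhibitor Cst3 read 8119, 9396 and 8584 in knockouts, against 9101, 8272 and 9107 in heterozygotes. Cstb, which blocks cathepsins inside cells, read 7699, 7983 and 7905 in knockouts, against 8244, 7989.6 and 8618 in heterozygotes, so all knockout arrays lay below by a narrow margin. In the other direction, Itih5, chosen after its values were seen, read 3799, 4212 and 4017 in knockouts, against 3768, 3640 and 3772 in heterozygotes. Its knockout arrays all lay above, also by a narrow margin. The membrane inhibitor Spint1 read 1975, 1563 and 1258 in knockouts, against 2109.9, 1842 and 1487 in heterozygotes, with a log2 difference of -0.19. Of the 9 cathepsins, targets of several clade B serpins, 0 passed limma in either direction. Among them Ctss read 2343, 2578 and 2505 in knockouts, against 2273, 2177 and 1813 in heterozygotes, without overlap and with a log2 difference of 0.25.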
